A study of Homo sapiens with 12 samples.

Results

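This account describes 10 integrin subunit genes, listed by name for the ligands their receptors bind, out of 26 integrin subunit genes listed and 58721 genes in the count table. Of these, 4 encode collagen-binding alpha subunits (ITGA1, ITGA2, ITGA10 and ITGA11). The other 6 encode subunits of receptors that bind the Arg-Gly-Asp (RGD) motif (the alpha subunits ITGA5 and ITGAV and the beta subunits ITGB1, ITGB3, ITGB5 and ITGB6). The study asked which genes and pathways AP-1 transcription factors control in Ewing sarcoma, a bone and soft tissue tumor usually driven by the EWS-FLI1 fusion. Poly(A) RNA was sequenced from 12 libraries of EW8 and TC71, a pair of established lines of this tumor, in 4 groups of 3. Every library came from cells that carried lentiviral Tet-On constructs, the transactivator Tet3G under the EF1a promoter and c-Jun and c-Fos, joined by a self-cleaving peptide, under TRE3G, so that doxycycline turned on both factors. For 72 h the cells received either 2000 ng/ml doxycycline or vehicle. Cells given the drug but lacking the transgene were not analysed here, so the effect of the drug and that of the factors cannot be told apart. The labels do not say whether the 3 libraries of a group were separate cultures, and the p-values below then measure only the spread between these libraries.

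Integrins are cell surface receptors made of 1 alpha and 1 beta chain that join the extracellular matrix to the actin cytoskeleton. The collagen-binding alpha chains carry an inserted domain that holds collagen, and each of them pairs with the beta chain encoded by ITGB1. ITGA5 also pairs with ITGB1 and forms the main fibronectin receptor, whereas the ITGAV chain pairs with ITGB1, ITGB3, ITGB5, ITGB6 or ITGB8 and binds vitronectin, fibronectin and latent TGF-beta. ITGB1 is therefore counted here with the RGD-binding subunits, but it is also the shared partner of the collagen-binding chains.

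Library totals ranged from 42860665 to 60853649 counts, and 21013 genes were tested. Mean JUN signal was 22.0-fold higher with doxycycline in EW8 and 36.4-fold in TC71, and mean FOS signal 29.3-fold and 135-fold higher, with transgene and endogenous transcripts not separated. In all 4 groups, 9 of 9 Ewing sarcoma markers were above the detection floor, which was set at 6 counts in a library (3 read pairs, if both mates were counted). Their summed level was 2785 to 3343 CPM in the 12 libraries. Most of it came from CCND1 and CD99, which moved in opposite directions with doxycycline in both lines. In edgeR's test (below), 5 of 9 markers were lower in each line at an adjusted p below 0.05. On the same terms 1 was higher in EW8 and 2 in TC71. Over all tested genes, 22.0% and 20.4% were lower, and 21.9% and 25.1% higher. Only LIPI, in EW8, also changed by more than 1 on the log2 scale (-1.40). TC71 vehicle replicate 1 stood apart from the other libraries of its group. The SD of its log2 differences from them over genes was 0.29 and 0.303, against 0.127 to 0.179 in every other pair of replicates, so the main values are also given without it.

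Levels below are CPM, counts relative to the TMM-scaled library size, divided by exon length in kilobases where genes are compared with each other (CPM per kb). A gene was called when its adjusted p was below 0.05 and its log2 fold change exceeded 1 in size, in edgeR's quasi-likelihood test with Benjamini-Hochberg adjustment over all tested genes. Every adjusted p below comes from that test, except where DESeq2 is named and in ranges over alternatives, which include DESeq2. Every error of a log2 fold change is a standard error.

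With c-Jun and c-Fos induced, 5 of 10 members were called higher in EW8 and 8 of 10 in TC71. Over all tested genes, 11.4% were called higher in EW8 and 12.3% in TC71. In EW8 the called members were ITGA2, ITGA5, ITGAV, ITGB3 and ITGB6, and in TC71 they were these and ITGA11, ITGB1 and ITGB5. ITGA11, ITGB3 and ITGB6 had few or 0 counts under vehicle, so their entry to the test rested on the doxycycline libraries. Requiring at least 10 counts in every library left 6 members, of which 3 were called higher in EW8 and 5 in TC71. In that setting 1255 of 14647 tested genes were called higher in EW8 and 1362 in TC71. None was called lower in either line by edgeR or by DESeq2, and none fell at an unadjusted p below 0.05 (called lower over all genes, 3.38% in EW8 and 3.67% in TC71). By class, 1 of 4 collagen-binding subunits was called in EW8 and 2 of 4 in TC71, against 4 of 6 and 6 of 6 RGD-binding subunits. These class counts include ITGA11 (in TC71), ITGB3 and ITGB6. Requiring at least 10 counts left ITGA1 and ITGA2 of the collagen-binding class and ITGA5, ITGAV, ITGB1 and ITGB5 of the RGD-binding class. There ITGA2 was called in both lines and ITGA1 in neither. ITGA5 and ITGAV were called in both lines, and ITGB1 and ITGB5 in TC71 alone. The median log2 fold change of the collagen-binding class was 0.82 in EW8 and 1.17 in TC71. That of the RGD-binding class was 2.64 and 2.33, or 1.62 and 2.33 with ITGB6 set at the bound its vehicle floor allows, and that of all tested genes was -0.031 and 0. The class medians rest on few genes, and the difference between the classes was not tested.

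**Figure D1:**
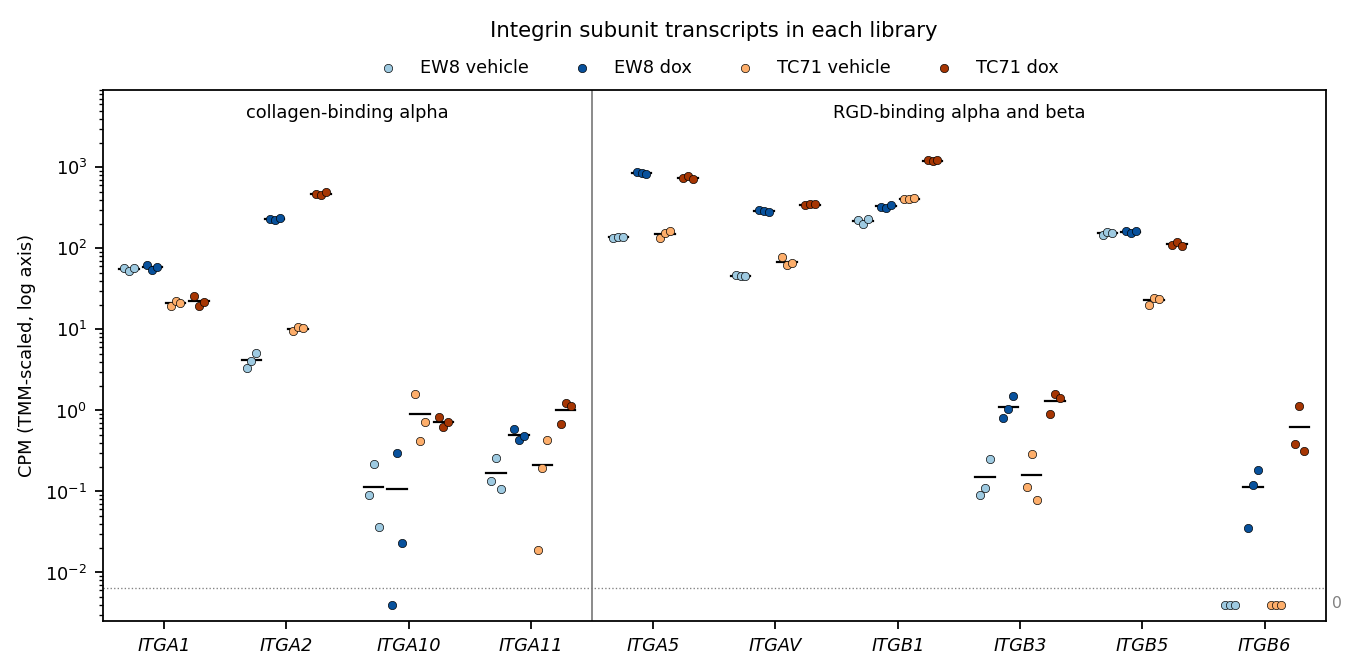
TMM-scaled CPM of the 10 integrin members in each library on a log axis, with points for the 3 libraries of a group, a bar at the group mean and points under the dotted line for libraries with 0 counts. ITGA2, ITGA5 and ITGAV were higher in every doxycycline library than in any vehicle library of the same line, whereas ITGA1 overlapped between treatments in both lines.

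ITGA2 encodes the alpha chain of the main collagen receptor of platelets and epithelial cells, and it changed most of the well-measured members. In EW8 it stood at 0.428, 0.518 and 0.638 CPM per kb under vehicle and at 28.8, 28.8 and 29.9 with doxycycline. In TC71 it stood at 1.197, 1.348 and 1.335 under vehicle and at 59.8, 57.7 and 62.2 with doxycycline. The groups lay far apart in both lines, and ITGA2 went from the sixth to the fourth place among the members in EW8 and from the fifth to the third in TC71. The log2 fold change was 5.77 ± 0.10 in EW8 (54.7-fold, adjusted p = 3.97e-18) and 5.53 ± 0.10 in TC71 (46.3-fold, adjusted p = 3.5e-18).

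ITGA1 encodes the alpha chain of a collagen receptor that is common on mesenchymal and smooth muscle cells. Its levels were 3.13, 2.80 and 3.07 CPM per kb under vehicle and 3.32, 2.93 and 3.19 with doxycycline in EW8. In TC71 they were 1.04, 1.21 and 1.15 under vehicle and 1.39, 1.05 and 1.19 with doxycycline. The treatments overlapped in both lines. The log2 difference was 0.07 in EW8 (95% interval -0.12 to 0.25, adjusted p = 0.609) and 0.09 in TC71 (-0.10 to 0.29, adjusted p = 0.479), so a change as large as the fold limit lay outside both intervals.

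ITGA1 and ITGA2 are neighbors on chromosome 5, transcribed in the same direction. In GRCh38, ITGA1 spans chr5:52787896-52959210 and ITGA2 spans chr5:52989326-53094779, with 30.1 kb between them. The ratio of ITGA1 to ITGA2 levels per kb was 5.85 ± 1.31 (SD) under vehicle and 0.108 ± 0.007 with doxycycline in EW8, and 0.877 ± 0.019 and 0.0202 ± 0.0027 in TC71. In vehicle-treated EW8 cells ITGA1 was thus the more abundant of the pair, in vehicle-treated TC71 cells the ranges of the genes overlapped, and in both lines ITGA2 exceeded ITGA1 after induction. The 60 bases before each RefSeq transcription start (GRCh38, plus strand for both genes) are shown because these neighboring genes had such different responses. The RefSeq starts differ from those of the count annotation, so part of each stretch lies inside the gene span given above.
ITGA1 (chr5:52787856-52787915): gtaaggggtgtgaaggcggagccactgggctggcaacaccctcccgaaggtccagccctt
ITGA2 (chr5:52989292-52989351): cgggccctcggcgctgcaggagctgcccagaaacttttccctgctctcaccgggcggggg

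The classical AP-1 motif TGACTCA, read on either strand, was not found in the RefSeq promoter windows of ITGA1 or ITGA2, which run from 250 bases before to 50 bases after the start. It was present in 4.95% of 35116 promoter windows and in 1 of 13 windows of the members, 9 of which had an entry in RefSeq. That window belonged to ITGA5, where the reverse complement TGAGTCA began 6 bases before the start. The RefSeq start used there lies inside the gene span of the count annotation, chr12:54395261-54419460. The motif is in capitals below, on the minus strand.
ITGA5 (chr12:54419254-54419283): cctccccgcgtTGAGTCAttcgcctctggg

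The tandem repeat GGAAGGAA, a short form of the GGAA repeats bound by EWS-FLI1, was in 3.67% of promoter windows and in 1 member window, that of ITGA10. Such matches are letters in a short window and were not tested for factor binding.

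The remaining collagen-binding subunits were near the limit of detection. ITGA11, whose product binds fibrillar collagen on fibroblasts, had 6, 12 and 6 counts under vehicle and 33, 22 and 21 with doxycycline in EW8. In TC71 it had 1, 12 and 22 counts under vehicle and 28, 51 and 50 with doxycycline. The treatments did not overlap in either line, as for 56% of all tested genes in EW8 and 50.7% in TC71. ITGA11 was called in TC71 (log2 fold change 2.24 ± 0.67, adjusted p = 0.0108) but not in EW8 (1.58 ± 0.70, adjusted p = 0.0787). Without TC71 vehicle replicate 1 the TC71 value was 1.63 and the EW8 value 1.62, and both passed (adjusted p = 0.0311 and 0.0224), while without TC71 vehicle replicate 3 the TC71 value was 3.13. In EW8, DESeq2 also called ITGA11 (adjusted p = 0.0499).

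ITGA10, best known from cartilage, had 4, 10 and 2 counts under vehicle and 0, 15 and 1 with doxycycline in EW8. In TC71 it had 83, 26 and 37 counts under vehicle and 34, 26 and 32 with doxycycline. The treatments overlapped in both lines, with log2 differences of -0.07 ± 1.00 (adjusted p = 0.966) and -0.32 ± 0.76 (adjusted p = 0.783). In EW8 these counts could not have shown a change of ordinary size, since the 95% interval ran from -2.03 to 1.88.

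ITGA5, the alpha chain of the fibronectin receptor, was the most abundant alpha member per kb in all 4 groups. Its levels in EW8 were 17.88, 18.02 and 18.44 CPM per kb under vehicle and 114.5, 112.0 and 109.1 with doxycycline. In TC71 they were 17.9, 20.3 and 21.5 under vehicle and 98.7, 102.7 and 93.8 with doxycycline. After induction every library was at least 93.8, and ITGA5 exceeded ITGB1 in EW8. The log2 fold change was 2.63 ± 0.06 in EW8 (6.18-fold, adjusted p = 3.69e-16) and 2.31 ± 0.06 in TC71 (4.95-fold, adjusted p = 1.35e-15). Without TC71 vehicle replicate 1 the TC71 values were 2.16 for ITGA5, 2.36 for ITGAV and 5.40 for ITGA2.

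ITGAV rose by nearly the same factor as ITGA5 within each line. It stood at 5.74, 5.51 and 5.63 CPM per kb under vehicle and at 36.5, 35.3 and 34.5 with doxycycline in EW8. In TC71 it stood at 9.43, 7.61 and 8.03 under vehicle and at 42.1, 42.6 and 42.5 with doxycycline. The groups did not overlap in either line. Its log2 fold change was 2.66 ± 0.07 in EW8 (6.30-fold, adjusted p = 9.46e-16) and 2.34 ± 0.07 in TC71 (5.08-fold, adjusted p = 3.08e-15).

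The beta subunits differed in their response between the lines. ITGB5, which joins ITGAV to form a vitronectin receptor, was 22.8, 24.8 and 23.9 CPM per kb under vehicle and 25.5, 24.1 and 25.2 with doxycycline in EW8. In TC71 it was 3.14, 3.78 and 3.73 under vehicle and 17.2, 18.8 and 16.8 with doxycycline. The treatments thus overlapped in EW8, at the high level of that line, and stood well apart in TC71. The log2 difference was 0.07 ± 0.07 in EW8 (95% interval -0.07 to 0.20, adjusted p = 0.492) and 2.31 ± 0.07 in TC71 (4.95-fold, adjusted p = 1.5e-14), or 2.15 in TC71 without vehicle replicate 1.

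ITGB1 levels in EW8 were 36.9, 33.2 and 38.4 CPM per kb under vehicle and 54.8, 53.2 and 57.7 with doxycycline. In TC71 they were 68.0, 68.3 and 69.8 under vehicle and 203.3, 197.1 and 204.5 with doxycycline. The groups did not overlap in either line, and vehicle-treated TC71 cells already exceeded induced EW8 cells. The log2 fold change was 0.61 ± 0.06 in EW8 (1.53-fold, adjusted p = 4.02e-08), which passed the test but not the fold limit, and 1.55 ± 0.06 in TC71 (2.93-fold, adjusted p = 6.78e-14). Without TC71 vehicle replicate 1 the TC71 value was 1.47.

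The processed pseudogene copy ITGB1P1 on chromosome 19 received 10.9% to 12.5% as many counts as ITGB1 in every library, so reads of ITGB1 transcripts and of this copy may be split between them. With its counts added to ITGB1 the log2 fold changes were 0.60 in EW8 and 1.55 in TC71.

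ITGB3 and ITGB6 were scarce. ITGB3, the beta chain of a further vitronectin receptor, had 4, 5 and 14 counts under vehicle and 45, 52 and 66 with doxycycline in EW8. In TC71 it had 6, 18 and 4 counts under vehicle and 37, 66 and 63 with doxycycline. The treatments did not overlap, and the log2 fold changes were 2.83 ± 0.56 (adjusted p = 0.000403) and 2.97 ± 0.55 (adjusted p = 0.000195). The EW8 value was 3.48 without EW8 vehicle replicate 3, and the TC71 value 3.72 without TC71 vehicle replicate 2 and 2.70 without TC71 vehicle replicate 1. In the annotation 51.6% of the ITGB3 exon bases are shared with an overlapping gene model on the same strand, and reads there would, under the default counting, have been left out of the count, so the level of ITGB3 is a low estimate.

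ITGB6, an epithelial subunit whose dimer with ITGAV activates latent TGF-beta, had 0 counts in all 6 vehicle libraries. With doxycycline it had 2, 6 and 8 counts in EW8 and 16, 48 and 14 in TC71. In TC71 this was at least 5.66-fold above the floor of 6 counts per vehicle library, or at least 3.23-fold without TC71 doxycycline replicate 2, which held 48 of the counts. The test called ITGB6 in TC71 (adjusted p = 0.00035) on its fitted change, and the bound itself was not tested. In EW8 the test also called it (adjusted p = 0.0134), but its mean with doxycycline was below the vehicle floor and no fold is given. Of its exon bases, 20.6% are shared with another gene model.

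**Figure D2:**
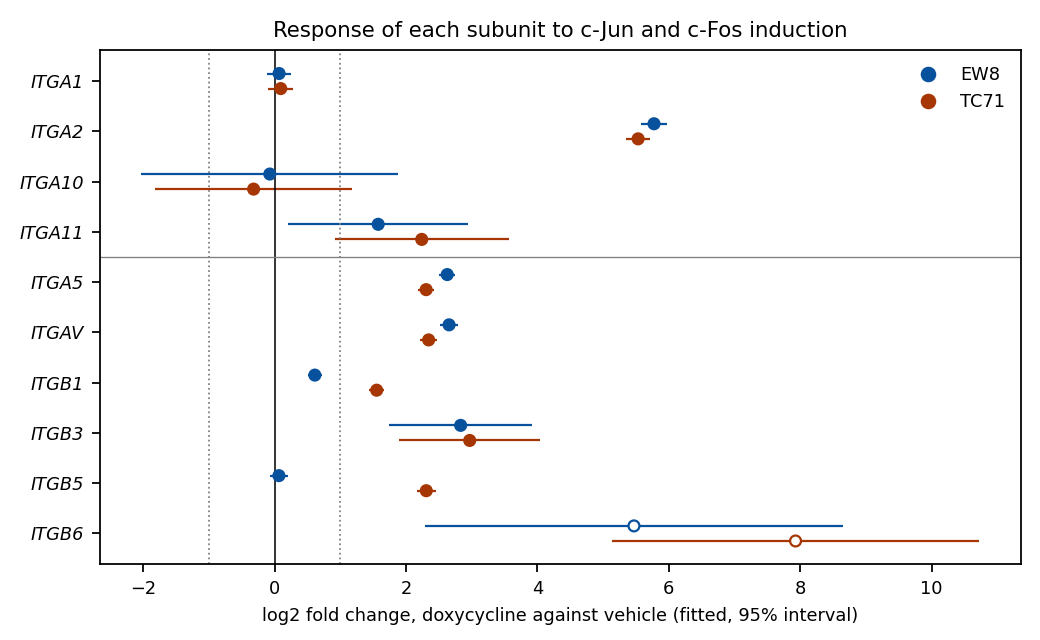
Fitted log2 fold change of each member, doxycycline against vehicle, with its 95% interval, in EW8 (blue) and TC71 (brown); dotted lines mark a log2 fold change of 1 in either direction, and open circles mark ITGB6, whose fitted value depends on the prior count because vehicle libraries had 0 counts. ITGB5 lay at 0.07 in EW8 and 2.31 in TC71, and ITGB1 at 0.61 and 1.55, while ITGA1 lay near 0 in both.

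The difference of the responses, tested as an interaction (TC71 minus EW8), was called for 1 of 10 members, against 4.18% of all tested genes called higher and 2.87% called lower. With no fold limit 4 of 10 members passed, against 19.3% of all tested genes. That member was ITGB5, whose response was larger in TC71 by 2.24 ± 0.10 on the log2 scale (adjusted p = 2.11e-11). For ITGB1 the response was larger in TC71 by 0.94 ± 0.08 (adjusted p = 7.68e-08), which passed the test under the fold limit. The 2 RGD-binding alpha subunits had smaller responses in TC71, by -0.32 ± 0.09 for ITGA5 (adjusted p = 0.0117) and -0.31 ± 0.09 for ITGAV (adjusted p = 0.023). No member was called lower by edgeR or DESeq2 with the fold limit, and ITGA5 and ITGAV were the members lower at an unadjusted p below 0.05. For ITGA2 the difference was -0.24 ± 0.13 (95% interval -0.49 to 0.01, adjusted p = 0.21). It ranged from -0.12 to -0.51 on leaving out single libraries and passed the test, under the fold limit, without EW8 vehicle replicate 3 (-0.51, adjusted p = 0.00804) or TC71 vehicle replicate 1 (-0.42, adjusted p = 0.00758). Without TC71 vehicle replicate 1 the difference was -0.52 for ITGA5, 2.04 for ITGB5 and 0.81 for ITGB1. For ITGAV the adjusted p was 0.0504 without EW8 vehicle replicate 2 and 0.0548 without TC71 doxycycline replicate 1. For ITGB6 the difference could not be estimated, since both vehicle groups had 0 counts.

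Under vehicle, 2 of 10 members were called higher in TC71 than in EW8 and 2 lower. Of all tested genes, 11.6% were called higher and 18.9% lower, so these counts are close to those of genes in general. Those higher in TC71 were ITGA2 (log2 difference TC71 minus EW8 1.28 ± 0.10, adjusted p = 2.56e-09) and ITGA10 (2.98 ± 0.89, adjusted p = 0.00709). ITGA1 (-1.40 ± 0.10, adjusted p = 4.79e-10) and ITGB5 (-2.75 ± 0.08, adjusted p = 1.33e-15) were called lower. The ITGA10 difference rested on few counts and was 3.83 without EW8 vehicle replicate 2 and 2.42 without TC71 vehicle replicate 1 (adjusted p = 0.0253), and without that TC71 library the ITGA1 difference was -1.23 and that of ITGB5 -2.56. ITGB1 was 0.93 ± 0.06 higher in TC71 (adjusted p = 5.64e-11), under the fold limit in the fit of all libraries and over it, at up to 1.04, when one of 4 libraries was left out. ITGA5 differed by 0.14 ± 0.06 (adjusted p = 0.06), and by 0.32 without TC71 vehicle replicate 1 (adjusted p = 1.58e-06).

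After induction the ITGB5 difference was -0.50 ± 0.07 (adjusted p = 4.55e-06), under the fold limit, whereas ITGB1 was 1.87 ± 0.06 higher in TC71 (3.65-fold, adjusted p = 5.59e-15). ITGA1 remained called lower in TC71 (-1.38 ± 0.10, adjusted p = 6.56e-10). In all, 4 of 10 members were called higher in TC71 with doxycycline (12.6% of all genes) and 1 lower (18.4%). ITGA2, at 1.04 ± 0.08 (adjusted p = 1.12e-09), was just over the fold limit and just under it, at 0.97 to 0.99, in 6 alternatives, among them the fits without EW8 vehicle, EW8 doxycycline or TC71 vehicle replicate 3. ITGB6 (2.46 ± 0.88, adjusted p = 0.026) rested on few counts, and without TC71 doxycycline replicate 2 its difference was 1.65 (adjusted p = 0.211). It also missed the threshold without EW8 doxycycline replicate 1 (2.00, adjusted p = 0.114) or replicate 2 (2.49, adjusted p = 0.0775). ITGA10 (2.73 ± 0.89, adjusted p = 0.0126) depended on EW8 doxycycline replicate 2, which held 15 of that group's counts, and its difference was 5.82 without that library, 2.11 without EW8 doxycycline replicate 1 and 2.23 (adjusted p = 0.0612) without EW8 doxycycline replicate 3.

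Per kb of exon, the order of the members changed with induction. Under vehicle ITGB1 was the highest in EW8 at 36.1 ± 2.7 (SD), followed by ITGB5 at 23.8 ± 1.0, ITGA5 at 18.1 ± 0.3, ITGAV at 5.63 ± 0.11, ITGA1 at 3.00 ± 0.18 and ITGA2 at 0.528 ± 0.106. With doxycycline the EW8 order was ITGA5 at 111.9 ± 2.7, ITGB1 at 55.2 ± 2.3, ITGAV at 35.5 ± 1.0, ITGA2 at 29.2 ± 0.6, ITGB5 at 24.9 ± 0.7 and ITGA1 at 3.15 ± 0.20. In EW8 no neighbors in these orders had overlapping libraries.

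In TC71 under vehicle the order was ITGB1 at 68.7 ± 0.9, ITGA5 at 19.9 ± 1.8, ITGAV at 8.36 ± 0.95, ITGB5 at 3.55 ± 0.36, ITGA2 at 1.29 ± 0.08 and ITGA1 at 1.13 ± 0.09. ITGA2 and ITGA1 overlapped there. With doxycycline it was ITGB1 at 201.6 ± 4.0, ITGA5 at 98.4 ± 4.5, ITGA2 at 59.9 ± 2.3, ITGAV at 42.4 ± 0.3, ITGB5 at 17.6 ± 1.1 and ITGA1 at 1.21 ± 0.17, without overlap between neighbors. The other 4 members were at or below 0.359 CPM per kb in every library, and in TC71 with doxycycline ITGB3 overlapped ITGB6, ITGB6 overlapped ITGA10 and ITGA10 overlapped ITGA11.

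Summed per kb, the 6 alpha members were 6.58-fold higher with doxycycline in EW8 (27.3 ± 0.4 against 179.7 ± 3.3) and 6.56-fold higher in TC71 (30.8 ± 1.2 against 202.2 ± 2.2). Within that sum the collagen-binding chains were 9.08-fold higher in EW8 and 23.7-fold in TC71, nearly all of it ITGA2. The RGD-binding alpha chains were 6.20-fold and 4.98-fold higher. The collagen-binding share of the alpha members was 13.04% ± 0.44 under vehicle and 18.01% ± 0.62 with doxycycline in EW8, and 8.40% ± 0.22 and 30.4% ± 1.5 in TC71. In EW8 the direction depends on dividing by exon length. Without it the share was 24.7% ± 0.8 under vehicle and 20.3% ± 0.7 with doxycycline, where the ITGA1 exons sum to 18566 bases and those of ITGA2 to 7910. In TC71 the share was higher with doxycycline on both scales, 12.9% ± 0.5 against 31.3% ± 1.5 without division by length.

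The makeup of the collagen-binding class changed in both lines on the per kb scale. ITGA1 made up 10.99% ± 0.55 of the alpha members in EW8 under vehicle and 1.75% ± 0.10 with doxycycline, and ITGA2 made up 1.93% ± 0.36 and 16.2% ± 0.6. In TC71 ITGA1 made up 3.68% ± 0.25 and 0.599% ± 0.087, and ITGA2 4.19% ± 0.20 and 29.6% ± 1.4. The share of ITGA5 was 66.3% ± 0.6 and 62.3% ± 0.4 in EW8, and 64.4% ± 3.8 and 48.7% ± 1.7 in TC71. These shares are descriptions and were not tested.

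**Figure D3:**
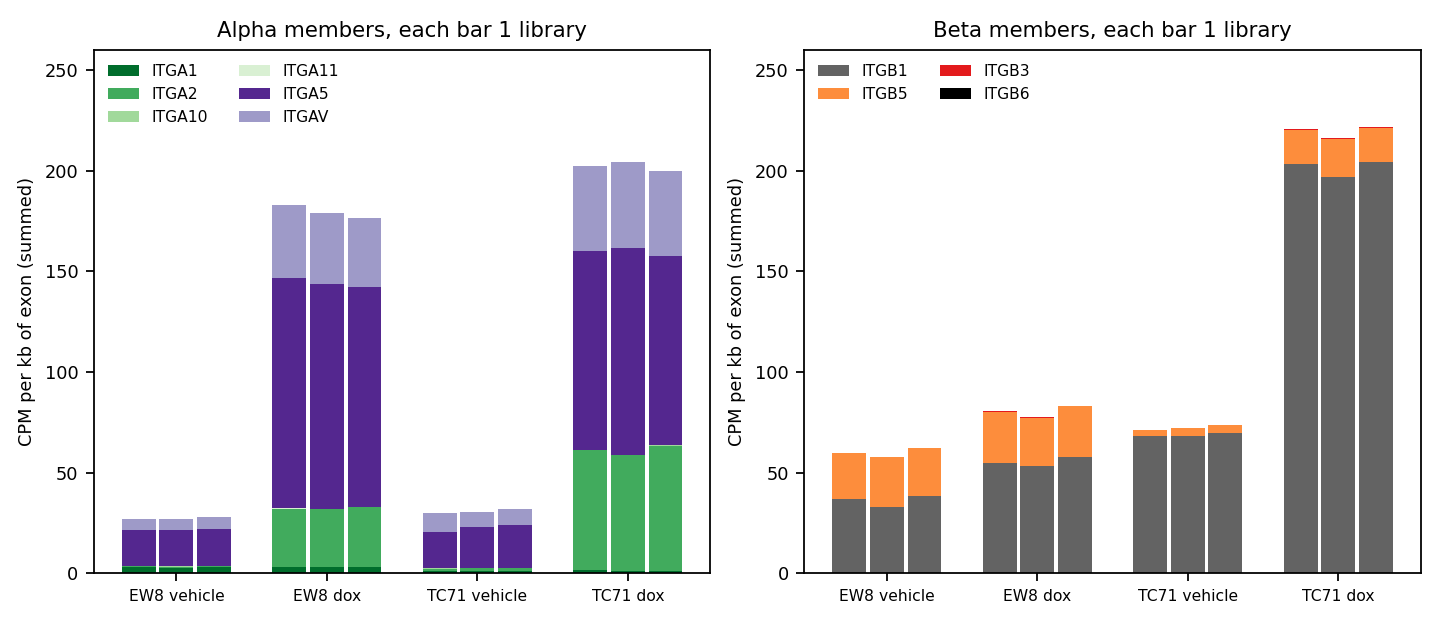
Summed CPM per kb of exon of the alpha members (left) and the beta members (right), with each bar 1 library and each color 1 gene. The alpha sum was near 27.3 and 30.8 under vehicle and 179.7 and 202.2 with doxycycline in EW8 and TC71, while the beta sum was 59.99 and 80.43 in EW8 and 72.3 and 219.6 in TC71.

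The beta members were 1.34-fold higher in sum with doxycycline in EW8 and 3.04-fold higher in TC71. ITGB1 made up 60.2% ± 2.6 of their sum under vehicle and 68.7% ± 0.6 with doxycycline in EW8, with nearly all of the rest from ITGB5, and 95.1% ± 0.5 and 91.8% ± 0.7 in TC71. The ratio of ITGB1 to the summed alpha members was 1.32 ± 0.08 under vehicle and 0.308 ± 0.017 with doxycycline in EW8, and 2.23 ± 0.06 and 0.998 ± 0.030 in TC71. Against all 12 alpha chains that can pair with ITGB1, it was 1.14 ± 0.07 and 0.272 ± 0.014 in EW8, and 1.76 ± 0.02 and 0.80 ± 0.03 in TC71. These are transcript ratios, and the level of protein or of assembled dimers was not measured.

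Across the 12 libraries the levels (log2 CPM) of ITGA2 and ITGAV had a Pearson correlation of 0.995, those of ITGA5 and ITGAV 0.98 and those of ITGA2 and ITGA5 0.976, although they lie on different chromosomes. All 12 points share the same treatment and line contrasts, so these are descriptions. The tested genes most like ITGA2 in this measure were CAPN2 (0.998), which encodes a calpain subunit, DOCK10 (0.998), a guanine nucleotide exchange factor, and TFPI (0.998), an inhibitor of coagulation. Those most like ITGAV were SH3RF1 (0.998), BTG1 (0.996) and CAPN2 (0.996). Those most like ITGB1 were ITGB1P1 (0.998), YWHAZ (0.998), a 14-3-3 protein gene, and BNC1 (0.996), a zinc finger gene of epithelia.

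Of the other integrin subunits, 12 of 16 were tested, with 6 called higher in EW8 and 5 higher and 1 lower in TC71. Over all tested genes, 11.4% were called higher in EW8, and 12.3% higher and 3.67% lower in TC71. ITGA6, a laminin receptor chain, rose by 4.15 ± 0.10 on the log2 scale in EW8 (adjusted p = 5.09e-16) and 4.48 ± 0.11 in TC71 (adjusted p = 1.75e-16). ITGA3, also a laminin receptor chain, rose by 4.11 ± 0.19 (adjusted p = 2.94e-12) and 5.60 ± 0.18 (adjusted p = 2.01e-14). The leukocyte chain ITGAX was at the floor under vehicle and 61.9 and 31.8 CPM with doxycycline in EW8 and TC71. The 6 alpha members made up 86.0% ± 0.4 of the ITGB1 partner chains per kb under vehicle and 88.4% ± 0.3 with doxycycline in EW8, and 78.8% ± 2.5 and 80.2% ± 0.3 in TC71.

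Of 15 tested ligands of the RGD-binding integrins, 9 were called higher in EW8 and 10 in TC71 (11.4% and 12.3% of all tested genes). These counts include SPP1 and VWF, which were at the floor under vehicle in both lines, so their entry to the test rested on the doxycycline libraries. In TC71 with doxycycline SPP1 had 10, 8 and 10 counts and VWF 10, 12 and 16. None was called lower by edgeR. With no fold limit 1 was lower in each line (22.0% and 20.4% of all tested genes). TNC, the matrix glycoprotein tenascin-C, had means of 20.3 CPM under vehicle and 1740 CPM with doxycycline in EW8 (a rise of 6.42 ± 0.14 on the log2 scale, adjusted p = 1.28e-16) and 13.8 and 1724 CPM in TC71 (6.96 ± 0.15, adjusted p = 3.71e-17). FN1, fibronectin, the ligand of the ITGA5 chain, rose from 64.7 ± 20.4 to 1942 ± 98 CPM in TC71 (4.91 ± 0.17, adjusted p = 3.44e-14). In EW8 it was already at 788.5 ± 22.3 CPM under vehicle and at 2321 ± 93 with doxycycline (1.56 ± 0.15, adjusted p = 6.43e-08). FN1 in EW8 is named because of its TC71 value.

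Collagen genes fell into different patterns in the lines. In EW8, 2 of 14 were called higher (COL6A3 and COL11A1) and 1 lower (COL13A1, a transmembrane collagen). In TC71, 9 were higher and 2 lower. Those higher in TC71 include COL1A2, COL4A1, COL4A2 and COL11A1, which were at the floor there under vehicle. Of all tested genes, 11.4% were called higher and 3.38% lower in EW8, and 12.3% and 3.67% in TC71. The EW8 counts are thus close to those of genes in general. In TC71 the chains of type VI collagen rose, COL6A3 by 4.80 ± 0.17 (adjusted p = 7.35e-14), COL6A2 by 4.18 ± 0.13 (adjusted p = 7.84e-15) and COL6A1 by 2.86 ± 0.11 (adjusted p = 2.83e-13), and COL5A1, a fibril-forming type V chain, rose by 3.19 ± 0.09 (adjusted p = 2.39e-15). Under vehicle, means of COL6A2, COL6A1 and COL5A1 were 135.0, 218.9 and 136.3 CPM in EW8, against 9.81, 22.6 and 10.1 in TC71. For COL6A3 they were 1.01 CPM in EW8 and 1.90 in TC71. The difference between the lines was itself called higher for 7 of 14 collagens (4.18% of all tested genes), among them COL1A2 and COL4A2. The median log2 fold change was 0.14 in EW8 and 3.02 in TC71, or 0.90 in TC71 with 3 genes at the vehicle floor set at their bounds and COL4A1, called there although both groups were at the floor, set at 0.

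Of the other collagen receptors, 1 of 5 tested was called higher in each line, the leukocyte receptor OSCAR, at up to 2.12 CPM in its group means. Over all tested genes, 11.4% were called higher in EW8 and 12.3% in TC71. With no fold limit 4 of 5 were higher in each line (21.9% and 25.1% of all tested genes). The adhesion complex list had 6 of 22 genes called higher in EW8 and 10 of 22 in TC71 (11.4% and 12.3% of all tested genes). None was called lower by edgeR. With no fold limit 16 and 20 were higher (21.9% and 25.1% of all tested genes) and 2 and 0 lower (22.0% and 20.4%). PXN, the adaptor paxillin, rose by 2.20 ± 0.06 in EW8 (adjusted p = 1.51e-15) and 2.42 ± 0.06 in TC71 (adjusted p = 2.61e-16). FERMT3, the kindlin of blood cells, rose by 3.04 ± 0.19 (adjusted p = 2.32e-10) and 2.03 ± 0.17 (adjusted p = 9.2e-09). Of 4 integrin inhibitors none was called in EW8 by edgeR, and with no fold limit 3 were higher there (21.9% of all tested genes). FLNA (1.38 ± 0.07, adjusted p = 1.89e-11) and ITGB1BP1 (1.01 ± 0.08, adjusted p = 7.32e-09) were called higher in TC71 (12.3% of all tested genes).

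**Figure D4:**
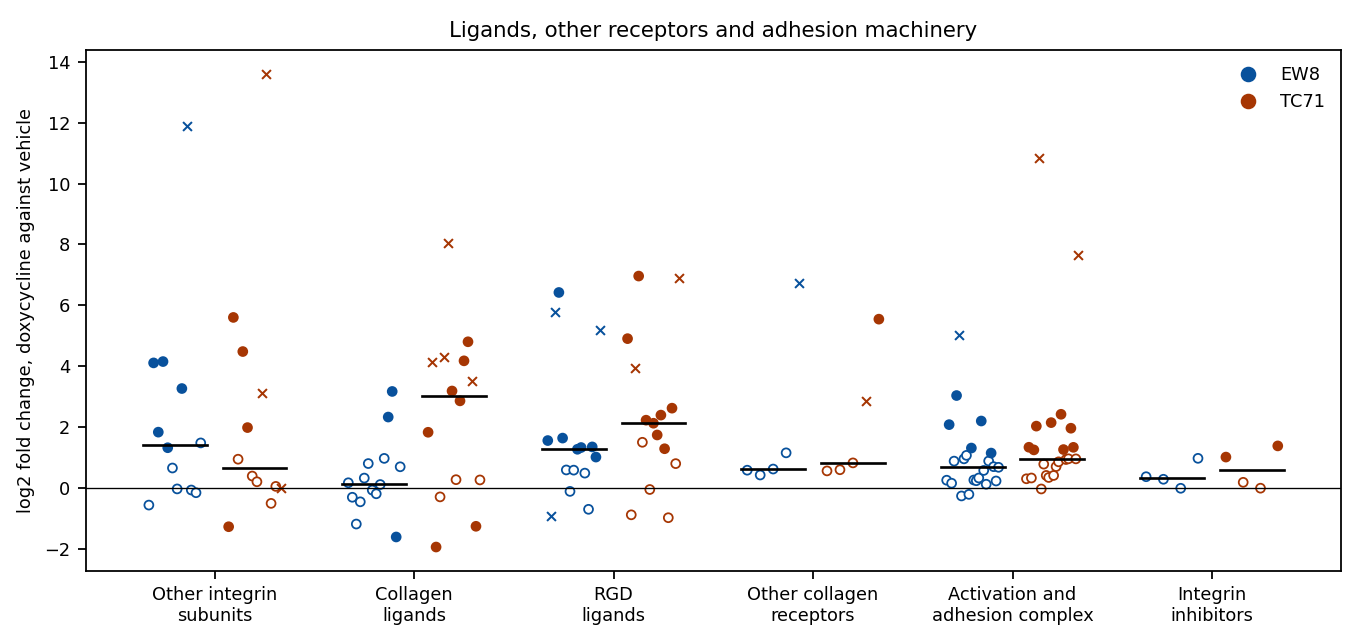
Log2 fold change, doxycycline against vehicle, of tested genes in 6 lists, in EW8 (blue) and TC71 (brown); filled circles were called, open circles were not, crosses are fitted values of genes at the floor in a group, and bars are medians. The collagen ligands lie around 0.14 in EW8 and higher in TC71, while RGD ligands lie mostly above 0 in both lines.

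Markers of other cell types moved with doxycycline beside these results. The sum of 4 endothelial markers was 7.37 to 8.57 CPM under vehicle and 44.4 to 50.5 with doxycycline in EW8, and 0 to 0.0388 and 3.80 to 4.65 in TC71, with PECAM1, VWF and TEK at 0 in TC71 under vehicle. In EW8 PECAM1, VWF and TEK were called higher, while CDH5 had means of 0.873 CPM under vehicle and 0.601 with doxycycline. In TC71 all 4 were at the floor under vehicle and called higher, TEK at the floor with doxycycline as well, and most of the sum was PECAM1. The sum of 5 epithelial markers was 9.72 to 10.2 and 50.7 to 54.9 CPM in EW8, and 176.5 to 215.3 and 227.1 to 241.2 in TC71. Most of it in EW8 was KRT8 and KRT18, both called higher, with CDH1 and KRT19 near 0. Most of it in TC71 was KRT18, which was not called, and EPCAM alone was called higher there. The sum of 5 leukocyte markers was 65.1 to 73.1 and 75.1 to 80.3 CPM in EW8, most of it PTPRC, and at most 0.66 in TC71, with CD3E at 0 there. The sum of 7 fibroblast markers was 120.1 to 132.7 and 108.5 to 111.4 CPM in EW8, and 96.8 to 150.0 and 153.0 to 163.9 in TC71. Within that list 1 was called higher (PDGFRA) and 2 lower (PDGFRB and LUM) in EW8, and 2 higher (COL1A1 and COL1A2) and 3 lower (PDGFRB, DCN and LUM) in TC71, where COL1A1 alone had means of 26.1 CPM under vehicle and 92.8 CPM with doxycycline. Over all tested genes, 11.4% were called higher and 3.38% lower in EW8, and 12.3% and 3.67% in TC71. The part of any other cell type in the integrin results was not tested, and in bulk RNA a different number of cells of a type and a different amount of RNA per cell cannot be told apart.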

How the data were processed

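Per the labels and the study's methods, the authors sequenced stranded poly(A) libraries (paired, 100 bp), aligned reads to GRCh38 with STAR and counted them in GENCODE 29 exons with featureCounts 2.0.1, which made the deposited raw counts per gene. The command in the file header sets no option for pairs, strand, multi-mapping or overlap, so the defaults were assumed (mates counted separately, strand ignored, multi-mapping and ambiguous reads dropped); 67.3% to 69.8% of counts from 20 to 199 were even. Genes were matched to symbols for 99.1% of 58721 identifiers. The deposited counts were analysed with edgeR 4.0.16 in R 4.3.3 (filterByExpr by group, TMM, 4 groups in 1 quasi-likelihood fit of 12 libraries, no covariates), and DESeq2 1.42.0 was an alternative. Tested genes held 99.95% of counts. Standard errors are the log2 fold change over the square root of its F value. CPM per kb used the deposited exon lengths. Correlations used log2 CPM with a prior of 1. Scripts were tested on simulated data. Members and gene lists were chosen with earlier results of these data known. From the other lists, up to 4 genes per line were eligible for naming, those with the largest change among called genes whose groups did not overlap and with a group mean of at least 1 CPM. Genes at the floor and genes of the marker lists were also named where a count or sum rests on them. Promoter windows came from RefSeq on GRCh38, and coordinates of genes from the count table.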

Additional observations from a re-analysis of the deposited data

Results flagged for a closer look

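Of the 10 members, 4 had a doxycycline response that differed between TC71 and EW8 by the interaction test (19.3% of all tested genes at an adjusted p below 0.05 with no fold limit). ITGB5 had the larger response in TC71, by 2.243 on the log2 scale, and so did ITGB1, by 0.941. ITGA5 and ITGAV had the smaller response in TC71, by -0.321 and -0.311. The adjusted p of ITGAV ranged from 0.000459 to 0.0548 over the alternatives and that of ITGA5 from 4.2e-07 to 0.0368. The cause was not tested.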

How the results depend on the processing

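The counts of called members kept their direction under DESeq2, other size factors, no filter on low counts, and the fit of each line alone. Requiring at least 10 counts in every library left 6 members to test and called 3 higher in EW8 and 5 in TC71. Of 14647 genes tested there, 1255 and 1362 were called higher. Between the lines, 1 member was called higher in TC71 under each treatment, against 1692 genes under vehicle and 1550 with doxycycline. With no fold limit the interaction had 2 higher and 2 lower (all genes, 12.2% and 7.07%), TC71 against EW8 had 4 higher and 2 lower under vehicle (28.2% and 33.5%), and 5 higher and 3 lower with doxycycline (30.2% and 32.3%). Halving all counts left 9 members to test and called 2 of them higher in TC71 than in EW8 with doxycycline, against 2318 of 18617 tested genes.

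Leaving out each library in turn called 5 to 6 members higher in EW8 and 8 in TC71, with 0 lower in both. The interaction then had 1 higher and 0 lower. TC71 against EW8 had 2 to 3 higher and 2 lower under vehicle. With doxycycline it had 2 to 4 higher and 1 lower, and the lowest count came without EW8 doxycycline replicate 3. Shares over all tested genes were not taken for these fits, and those with all libraries are given above. The change in the collagen-binding share was 4.61 to 5.19 percentage points in EW8 (4.97 with all libraries) and 21.2 to 22.7 in TC71 (21.9). Without division by length it was -4.42 in EW8 and 18.4 in TC71, and with ITGAV left out of the sum 6 and 26.9. Exon length without shared bases, an alternative chosen after seeing the data as was adding ITGB1P1 to ITGB1, gave changes of 4.38 and 21.6 percentage points, the first below the range over libraries left out.

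Values of single genes that turned sign were all uncalled. They were ITGA10 in EW8 (-3.131 to 0.78 on leaving out single libraries) and TC71 (-0.667 to 0.273), and ITGA1 in TC71 (-0.002 with library size alone, -0.046 to 0.187 without single libraries). In the interaction they were ITGA1 (-0.016 with DESeq2 and with median-ratio size factors, -0.012 with library size alone, -0.082 with 10 counts in every library, -0.076 with halved counts, and -0.16 to 0.117 without single libraries), ITGA10 (-1.099 to 2.765 without single libraries) and ITGB3 (-0.009 with halved counts, -0.568 to 0.894 without single libraries). Under vehicle they were ITGB3 (-0.662 to 0.739) and ITGA11 (-0.56 to 0.982). The causes were not tested.

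Same-numbered vehicle and doxycycline libraries had correlations of their deviations of -0.067, 0.054 and 0.013 in EW8 and -0.017, 0.076 and -0.072 in TC71. No shared effect of the replicate number was thus seen. These values cannot show whether same-numbered cultures were set up together, which the labels do not say. With the replicate block 5 members were called higher in EW8 and 8 in TC71, against 2327 and 2507 of 21013 tested genes. ITGB6 was then no longer called between lines with doxycycline (2.419, adjusted p = 0.051), and ITGA10 in the interaction was 0.47. Counts near the floor limit ITGA10, ITGA11, ITGB3 and ITGB6, and floors cover counting error only, whereas the intervals of fold changes come from the edgeR fit and include the spread between libraries.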
